A study of Mus musculus with 16 samples.

Results

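Transcripts of 7 genes that mark macrophages and monocytes were followed in livers of mice with MASH, the form of metabolic fatty liver disease that adds inflammation and scarring to fat. They were chosen by name among the 760 genes of the deposited table: Ccr2 as the marker of monocytes, Cd68, Csf1r, Fcer1g and Cd14 as pan-macrophage markers, and Marco and Cd163 as markers of resident macrophages. All 16 animals were male C57BL/6J mice housed at 29 degrees C and fed a diet with 40 kcal% of fat, chiefly from palm oil, 20 kcal% of fructose and 0.02% of cholesterol. A group of 8 received the vehicle, Tween-20 at 0.2% with CMC at 1.5%, and the other 8 received EVT0185 by gavage at 100 mg/kg, each sample being 1 animal. The title of the series describes EVT0185 as inhibiting acetyl-CoA metabolic enzymes, and the comparison here addresses whether dosed livers differ in macrophage transcripts. Age, duration of diet and dosing, and the lane or cartridge of each sample are not stated in the labels, and no healthy or untreated control animals were analysed here.

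Liver macrophages come from more than 1 source. Kupffer cells, the resident macrophages of the sinusoids, are long-lived and carry scavenger receptors that clear particles and haemoglobin from the blood. In an injured liver, monocytes that leave the bone marrow through the chemokine receptor CCR2 enter the tissue and mature into macrophages, which share markers such as CD68 and the receptor for CSF1 with the resident cells. In a piece of whole liver, fewer cells of a type and less RNA per cell cannot be told apart.

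The label could be checked only in part. Of a list of 22 further markers of macrophages, Kupffer cells and monocytes (such as Adgre1, Clec4f, Timd4 and Ly6c2), 0 are among the genes analysed here, so the division into resident and recruited cells rests on the 7 genes themselves. The lowest recovered count of the 7 in any animal was 21 (Ccr2), and mean counts ran from 54.8 (Ccr2) to 558.5 (Csf1r). Background treatment is not stated, so how far the lowest of these lie above background is not known. Outside macrophages, Fcer1g is also expressed by mast cells and natural killer cells, and Cd14 by neutrophils and hepatocytes. Ccr2 is taken as the monocyte marker by choice, and whether all of its counts came from monocytes cannot be read from whole liver.

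The promoters of the 4 genes on which the results turn are shown to set beside each other the stretches that start the gene that fell most (Ccr2), the general marker that fell (Cd68) and both resident markers. Each runs from 250 bases before to 50 bases after the start of the transcript, 5′ to 3′ on the strand of the gene, from RefSeq. Capitals mark GAGGAA on either strand, the core of sites for the myeloid factor PU.1, and TGANTCA, the form of sites for AP-1, which reads alike on both strands. These motifs do not overlap in the windows shown.
Ccr2 (GRCm38.p6, chr9:124101933-124102232, plus strand): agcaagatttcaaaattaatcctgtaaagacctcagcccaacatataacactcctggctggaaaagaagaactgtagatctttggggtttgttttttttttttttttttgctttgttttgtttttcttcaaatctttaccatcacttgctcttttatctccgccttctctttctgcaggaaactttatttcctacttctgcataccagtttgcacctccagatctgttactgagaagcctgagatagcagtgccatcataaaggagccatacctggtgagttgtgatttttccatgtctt
Cd68 (GRCm38.p6, chr11:69666121-69666420, minus strand): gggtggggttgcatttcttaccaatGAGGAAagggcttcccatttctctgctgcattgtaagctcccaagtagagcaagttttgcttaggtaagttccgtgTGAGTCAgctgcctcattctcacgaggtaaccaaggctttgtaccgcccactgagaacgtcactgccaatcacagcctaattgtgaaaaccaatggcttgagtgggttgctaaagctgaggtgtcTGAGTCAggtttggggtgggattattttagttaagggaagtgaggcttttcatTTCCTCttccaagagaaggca
Marco (GRCm38.p6, chr1:120504975-120505274, minus strand): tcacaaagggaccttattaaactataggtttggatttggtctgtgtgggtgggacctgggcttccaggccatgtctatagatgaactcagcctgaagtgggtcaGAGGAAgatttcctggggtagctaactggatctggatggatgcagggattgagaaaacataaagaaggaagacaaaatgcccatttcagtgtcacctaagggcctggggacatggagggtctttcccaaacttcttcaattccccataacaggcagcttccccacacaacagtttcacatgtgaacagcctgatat
Cd163 (GRCm38.p6, chr6:124304401-124304700, plus strand): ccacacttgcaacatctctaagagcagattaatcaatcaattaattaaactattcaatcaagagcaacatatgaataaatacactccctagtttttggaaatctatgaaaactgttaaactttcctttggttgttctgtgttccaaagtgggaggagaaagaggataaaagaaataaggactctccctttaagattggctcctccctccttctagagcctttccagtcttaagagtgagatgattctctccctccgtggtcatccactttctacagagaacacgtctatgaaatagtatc
The Cd68 window holds GAGGAA at 2 places, from bases -225 and 30 relative to the start, and TGANTCA at 2 places, from bases -149 and -24. The Marco window holds 1 GAGGAA, from base -146, and no TGANTCA, while neither motif is written in the windows of Ccr2 and Cd163. Of 32851 RefSeq promoter windows of 300 bases, 28.3% hold GAGGAA and 7.81% hold TGANTCA, so such matches are common and serve as a description only.

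Values are nCounter counts, read without amplification from fluorescent barcodes, which the authors normalized and deposited as log2; they are printed on the linear scale as normalized counts, and differences on the log2 scale. The total count recovered per animal ranged from 1462994 to 1850800. Of the 760 genes, 612 had a mean normalized count of at least 20 and were tested together with limma, with p adjusted by Benjamini-Hochberg over the 612 and a threshold of 0.05, and all 7 markers were among them. Vehicle animal 3 stood apart from its group: it had the highest value of the vehicle group for 192 of the 612 genes (31.4%) and for 5 of the 7 markers, so results that rest on it are given with and without it. Vehicle 7 had the lowest value of its group for 241 genes (39.4%) and the lowest weight of all animals where samples were weighted (0.184), and EVT0185 2 had the lowest value of its group for 236 genes (38.6%).

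Of the 7 markers, 2 were lower in EVT0185 livers (Ccr2 and Cd68), 0 were higher and 5 did not pass. Among all 612 tested genes 200 passed (32.7%), 132 of them lower (21.6%) and 68 higher, so the share of called markers lay near that of the panel. The median gene differed by -0.10 on the log2 scale and the median marker by -0.14. The balance of directions over the panel moved with the scaling: 34% of the called genes were higher as deposited, against 53.3% of 180 after centring each animal on its median and 54.4% of 195 after quantile normalization, which moved the median gene up by 0.12.

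Ccr2, the receptor through which monocytes follow the chemokine CCL2, showed the largest fall of the 7. Its normalized counts ran from 42.8 to 107 with a median of 67.4 in vehicle animals, and from 21.7 to 58.8 with a median of 38.6 in EVT0185 animals. All 8 EVT0185 animals lay below the vehicle median and 4 lay below every vehicle animal, so the groups still overlapped. Vehicle livers averaged 68.6 ± 21.5 (SD, n = 8), and EVT0185 livers averaged 38.7 ± 12.4 (SD, n = 8). This is a log2 difference of -0.83 (SE 0.22, 95% interval -1.29 to -0.37), or 1.78-fold lower (limma adjusted p = 0.00713). Ccr2 was called under each alternative in which it was tested and without each animal in turn, with adjusted p from 0.0023 to 0.036. The difference was smaller with a pseudocount of 20 (-0.58) and after quantile normalization (-0.67). Without vehicle 3, which had the lowest Ccr2 of its group, the difference was -0.92, without vehicle 7 it was -0.91 and without EVT0185 2 it was -0.77. Counting error made up 17.4% of its variance within groups.

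Cd68, a lysosomal membrane glycoprotein of macrophages, fell less. Vehicle values ran from 209 to 601 with a median of 312, and EVT0185 values from 187 to 250 with a median of 216. Every EVT0185 animal lay below the vehicle median, as for 161 of the 612 tested genes (26.3%), and 2 lay below every vehicle animal. Vehicle livers averaged 331 ± 127 (SD, n = 8), and EVT0185 livers averaged 222 ± 24.3 (SD, n = 8), a log2 difference of -0.50 (SE 0.17, 95% interval -0.86 to -0.14, limma adjusted p = 0.0317). The call ended after median centring (-0.41, limma adjusted p = 0.0786), after quantile normalization (-0.40, limma adjusted p = 0.069) and by ranks (exact rank-sum test, adjusted p = 0.0967). Leaving out any of vehicle 5, vehicle 6, EVT0185 1, EVT0185 2 and EVT0185 8 ended it too, and it held without vehicle 3 at -0.37 and without vehicle 7 at -0.47 (limma adjusted p from 0.0131 to 0.0614 over all single omissions).

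**Figure D1:**
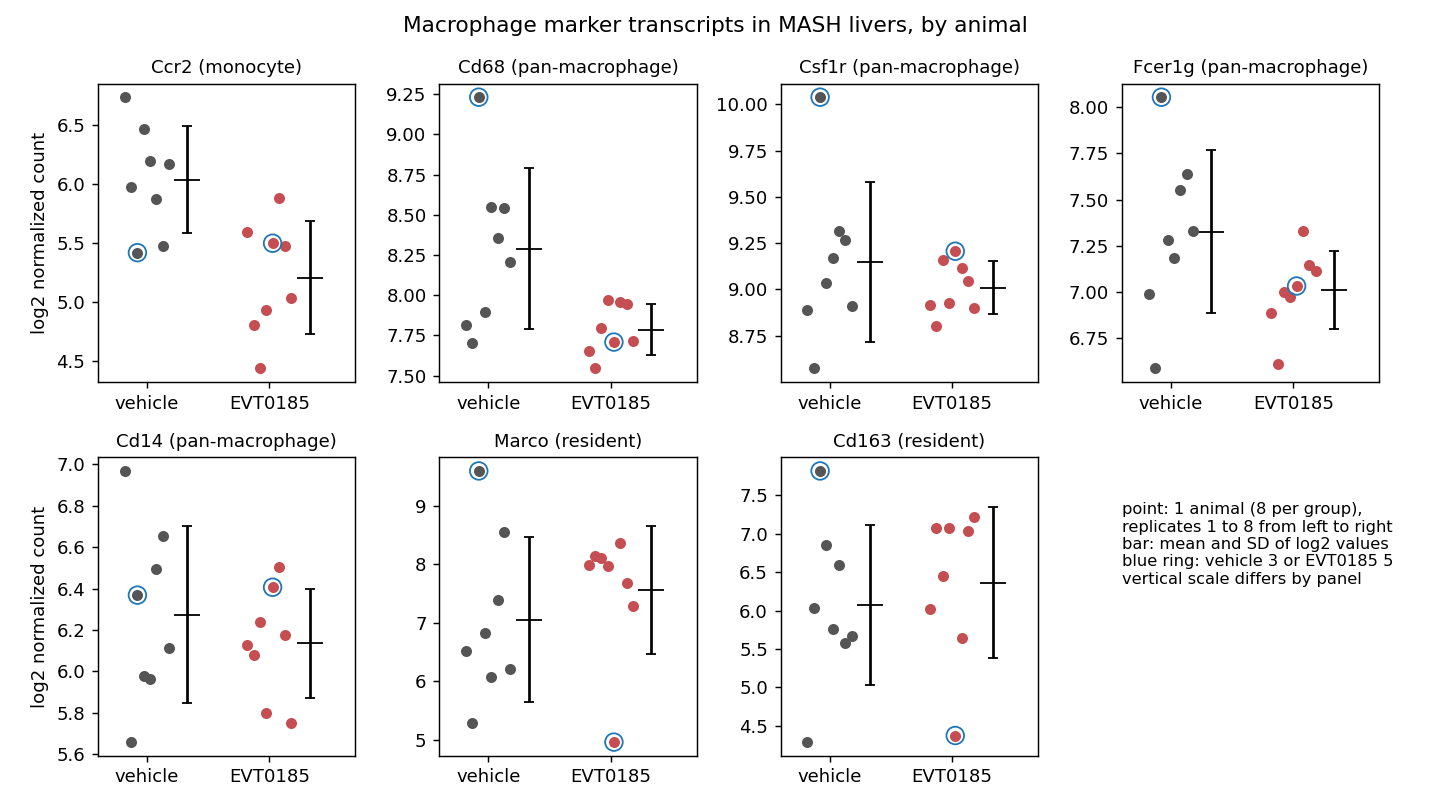
Log2 normalized counts of the 7 markers (vertical axis, scale differs by panel) in 8 vehicle (grey) and 8 EVT0185 (red) livers, 1 point per animal with the group mean and SD as a bar. All EVT0185 points lie below the vehicle median for Ccr2 and Cd68, vehicle animal 3 (ringed) is the highest of its group in 5 panels, and EVT0185 animal 5 (ringed) is the lowest of its group for Marco and Cd163.

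The other pan-macrophage markers did not pass. Csf1r, the receptor kinase for the growth factors CSF1 and IL-34 on which macrophages depend, ran from 381 to 1052 (median 550) in vehicle and from 447 to 591 (median 508) in EVT0185 livers. No EVT0185 animal lay outside the vehicle range. Its log2 difference was -0.14 (SE 0.15, 95% interval -0.46 to 0.17, limma adjusted p = 0.521), and -0.014 without vehicle 3.

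Fcer1g encodes the common gamma chain that carries the activating signal of Fc receptors. It ran from 96.2 to 266 (median 158) in vehicle and from 97.7 to 161 (median 130) in EVT0185 livers. EVT0185 animals lay inside the vehicle range, 7 of 8 of them below its median. The log2 difference was -0.32 (SE 0.16, 95% interval -0.66 to 0.025, limma adjusted p = 0.146), and it passed only without vehicle 2, the lowest vehicle animal for this gene (-0.42, adjusted p = 0.0312).

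Cd14, the surface co-receptor that hands bacterial lipopolysaccharide to TLR4, ran from 50.5 to 125 (median 75.9) in vehicle and from 53.8 to 90.7 (median 71.0) in EVT0185 livers. The groups covered nearly the same range. The log2 difference was -0.14 (SE 0.17, 95% interval -0.49 to 0.21, limma adjusted p = 0.571), turning to 0.059 after quantile normalization and to 0.0012 with sample weights.

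Marco and Cd163, the resident markers, had higher medians in EVT0185 livers but neither passed. Marco is a scavenger receptor with a collagen-like stalk that binds bacteria and particles. Its normalized counts ran from 39.1 to 771 (median 103) in vehicle livers. In EVT0185 livers 7 of the 8 animals lay above the vehicle median, and the values ran from 31.1 to 327 (median 251). Animal 5 had the value of 31.1, below every vehicle animal, while the next lowest of its group had 155. Vehicle livers averaged 212 ± 249 (SD, n = 8), and EVT0185 livers averaged 222 ± 92.8 (SD, n = 8). On the log2 scale the difference was 0.51 (SE 0.56, 95% interval -0.68 to 1.69, limma adjusted p = 0.54). This interval spans from 0.626 to 3.22 as a ratio of EVT0185 to vehicle. Without vehicle 3 the difference was 0.87, without EVT0185 5 it was 0.88 and without vehicle 2 it was 0.25, and none of these passed (adjusted p from 0.182 to 0.758 over all single omissions).

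Cd163 is the receptor by which macrophages take up haemoglobin bound to haptoglobin. It ran from 19.5 to 226 (median 60.1) in vehicle and from 20.7 to 149 (median 109) in EVT0185 livers. Of the EVT0185 animals 6 lay above the vehicle median and none outside the vehicle range. The log2 difference was 0.29 (SE 0.45, 95% interval -0.66 to 1.24, limma adjusted p = 0.673). It was 0.034 without vehicle 1, which had the lowest value, and 0.57 without EVT0185 5.

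**Figure D2:**
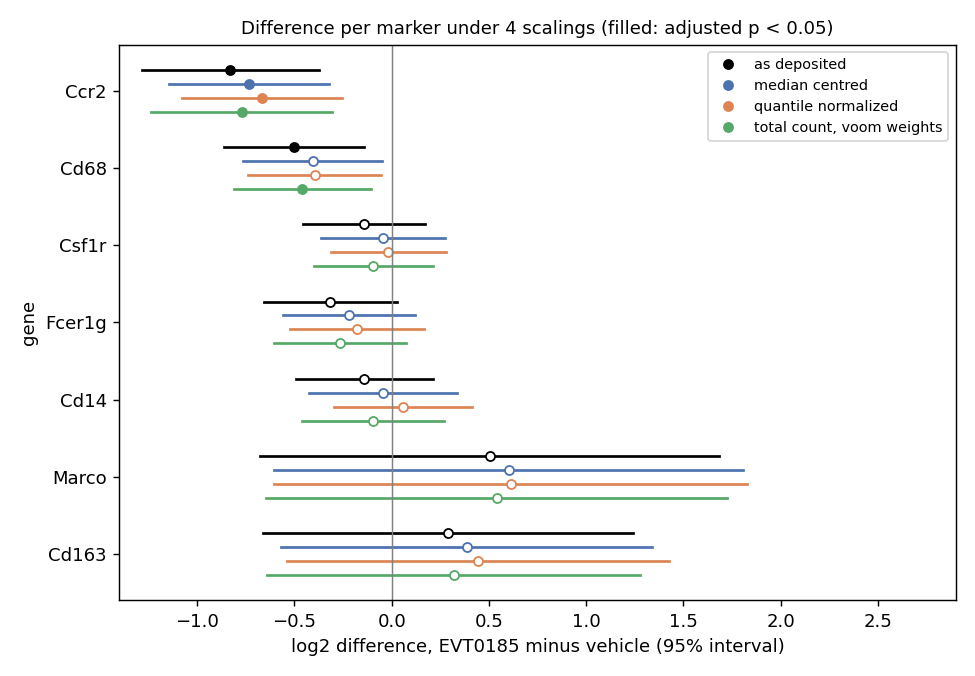
Log2 difference of each marker (EVT0185 minus vehicle, horizontal axis) with its 95% interval, as deposited and under 3 other scalings, with filled points where limma's adjusted p was under 0.05. Ccr2 is filled under all 4, Cd68 as deposited and with total count scaling, and the intervals of Marco and Cd163 reach well beyond 0 on both sides.

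The resident markers were among the most variable genes of the panel between animals of the same group. Marco had the largest within-group SD of all 612 tested genes, 1.26 on the log2 scale, and Cd163 the fourth largest at 1.02, against a median of 0.25 over all tested genes. Counting explained 0.605% of this variance for Marco and 2.26% for Cd163. Marco varied 19.7-fold among vehicle animals (9.53-fold without vehicle 3) and 10.5-fold among EVT0185 animals. The EVT0185 range rested on animal 5 at 31.1, and the other animals of that group ran only from 155 to 327. The pan-macrophage markers and Ccr2 had within-group SDs from 0.32 (Csf1r) to 0.47 (Ccr2).

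The log2 SDs of the 4 pan-macrophage markers were smaller among EVT0185 than among vehicle animals. The log2 SD of Cd68 was 0.50 in vehicle and 0.16 in EVT0185 livers, that of Csf1r 0.43 and 0.14, that of Fcer1g 0.44 and 0.21, and that of Cd14 0.43 and 0.26. Without vehicle 3 the vehicle SDs were 0.35, 0.26, 0.36 and 0.46. Over all tested genes the SD was larger in vehicle for 70.4%, with a median ratio of 1.27, and at least 2 times larger for 17.6%, against 3 of the 7 markers. Without vehicle 3 the ratio was 2.21 for Cd68, 1.80 for Csf1r, 1.69 for Fcer1g and 1.75 for Cd14, so that 1 of the 7 markers reached 2, against 14.5% of all tested genes and a median ratio of 1.20. For Ccr2 the SD was 0.45 in vehicle and 0.48 in EVT0185 livers, for Marco 1.41 and 1.10, and for Cd163 1.04 and 0.99. It was thus larger in vehicle for 6 of the 7 markers. Without vehicle 3 the vehicle SDs of Ccr2, Marco and Cd163 were 0.41, 1.04 and 0.83, each below that in EVT0185 livers. The difference in spread was not tested.

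**Figure D3:**
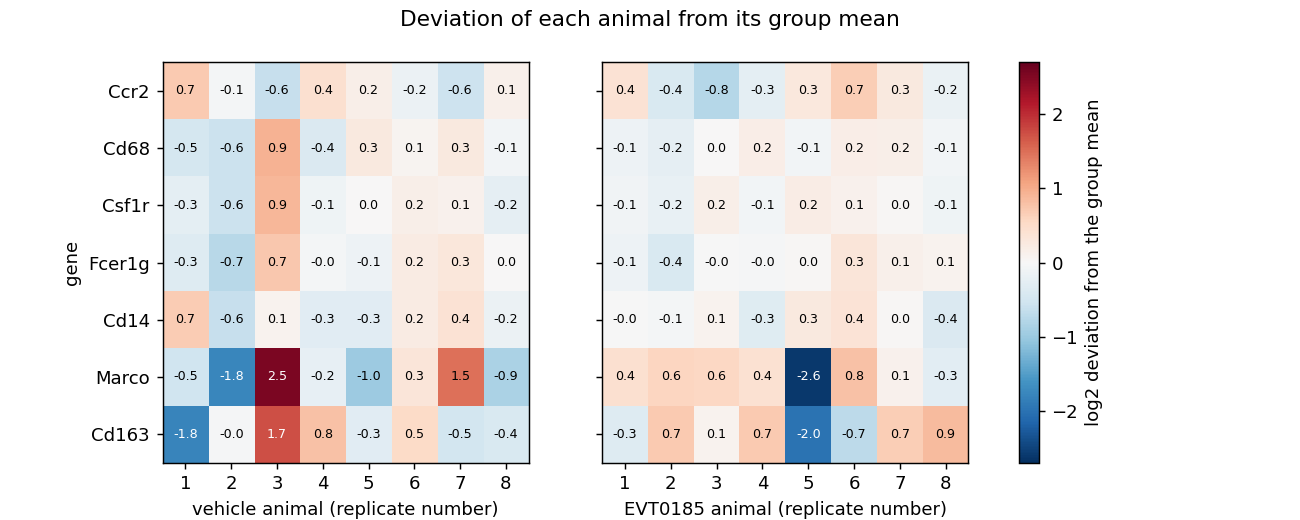
Log2 deviation of each animal from its group mean (colour and number) for the 7 markers (rows) in vehicle (left) and EVT0185 (right) animals 1 to 8 (columns). Vehicle 3 is high for Cd68, Csf1r, Fcer1g, Marco and Cd163 and low for Ccr2, and EVT0185 5 is low for Marco and Cd163 with the other 5 genes between -0.1 and 0.3.

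Single animals combined the markers in different ways. Vehicle 3 had the highest Cd68, Csf1r, Fcer1g, Marco and Cd163 of its group and the lowest Ccr2, with Marco 2.54 and Cd163 1.74 above and Ccr2 0.62 below the group mean on the log2 scale. Its Ptprc, the pan-leukocyte antigen CD45, was also the highest of the vehicle group at 188, against a group median of 124. Vehicle 2 had the lowest Cd68, Csf1r, Fcer1g, Cd14 and Marco. In EVT0185 5, Marco lay 2.60 and Cd163 1.99 below the group mean, while Csf1r, at 591, was the highest of that group. In the same liver Csf1r, Cd68 and Fcer1g deviated from their group means by 0.20, -0.078 and 0.022.

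Between animals of a group, Cd68, Csf1r and Fcer1g varied together. Over the 16 animals, after removal of the group means, Pearson's r was 0.88 for Cd68 and Csf1r, 0.85 for Cd68 and Fcer1g and 0.88 for Csf1r and Fcer1g. These 3 of the 21 pairs of markers passed (permutation test within groups, adjusted p = 0.00371 for each), against a median r of 0.12 over all pairs of tested genes. Spearman's rho was 0.73, 0.68 and 0.75 for the same pairs (permutation adjusted p = 0.0822, 0.0902 and 0.0567), so no pair passed by rank, though 4 of the 21 had an unadjusted p under 0.05. Without the 2 animals farthest from the median of the first gene, vehicle 2 and 3 (both pairs with Cd68 and the pair of Csf1r and Fcer1g alike), r was 0.63, 0.64 and 0.68. Within vehicle animals r was 0.93, 0.88 and 0.93, and within EVT0185 animals 0.41, 0.75 and 0.61.

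No pair of a resident marker with that trio passed. For Marco r was 0.65 with Cd68 (Spearman's rho 0.46, permutation adjusted p = 0.0629 and 0.231), 0.64 with Fcer1g (rho 0.48, permutation adjusted p = 0.0629 and 0.228) and 0.59 with Csf1r (rho 0.42, permutation adjusted p = 0.0925 and 0.231). Without vehicle 2 and 3 these were 0.27, 0.27 and 0.034, so they rested on those animals. Within vehicle animals they were 0.81, 0.92 and 0.91 and within EVT0185 animals 0.21, -0.074 and -0.45, a difference between groups that was not tested. Single animals weigh on these values: Marco lay 2.54 above the group mean in vehicle 3. In EVT0185 5 Marco lay 2.60 below and Csf1r 0.20 above. Without vehicle 3, r over both groups was 0.43, 0.47 and 0.31, and r within EVT0185 animals was not computed without animal 5. For Cd163 r was 0.41 with Cd68 (rho 0.17, permutation adjusted p = 0.249 and 0.631), 0.31 with Fcer1g (rho 0.076, permutation adjusted p = 0.366 and 0.826) and 0.30 with Csf1r (rho 0.021, permutation adjusted p = 0.366 and 0.944). Without vehicle 2 and 3 these were 0.16, 0.080 and -0.13. For Marco and Cd163 r was 0.58 (rho 0.28, permutation adjusted p = 0.0923 and 0.421), and 0.098 without vehicle 3 and EVT0185 5. Ccr2 ran against both in sign, with r of -0.46 with Marco (rho -0.45, permutation adjusted p = 0.173 and 0.228) and -0.54 with Cd163 (rho -0.49, permutation adjusted p = 0.0956 and 0.228), and -0.46 and -0.49 without the 2 animals farthest in Ccr2. This was not particular to the resident markers: r of Ccr2 was -0.42 with Cd68, -0.36 with Csf1r and -0.23 with Fcer1g (permutation adjusted p = 0.198, 0.287 and 0.449). Without vehicle 3 these 3 were -0.25, -0.14 and -0.025, and r of Ccr2 was -0.34 with Marco and -0.45 with Cd163. Within vehicle animals, vehicle 3 included, r of Ccr2 with Cd68, Csf1r and Fcer1g was -0.74, -0.63 and -0.64. Within EVT0185 animals it was 0.26, 0.23 and 0.52. For Ccr2 and Cd14 r was 0.19, and for Cd14 and Cd163 it was -0.51 (rho -0.57, permutation adjusted p = 0.125 and 0.151).

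The genes outside the 7 that followed each marker most closely over the 16 animals were ranked by Pearson's r after removal of group means, among 605 genes. Cd68 was closest to Fcgr4, an activating Fc receptor (r = 0.86), and Csf1r to Fcgr4 (0.89) and the haem-degrading enzyme Hmox1 (0.88). Fcer1g was closest to the co-stimulatory ligand Cd86 (0.89) and to the lysosomal protease Lgmn (0.88). Cd14 was closest to the fatty acid binding proteins Fabp4 (0.75) and Fabp5 (0.71). Ccr2 was closest to the lipid droplet protein Pnpla3 (0.84) and the basement membrane protein Nid2 (0.81). Marco was closest to Ssr2, a protein of the translocon of the endoplasmic reticulum (0.82), and to Lgmn (0.78), and Cd163 to the selenoprotein Selenos (0.86) and the growth factor receptor Egfr (0.76). All values share the scaling factor of the animal and are given as a description.

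Scaling cancels when 2 markers are set against each other within an animal, so each was also expressed relative to Cd68, with the vehicle mean set to 0. Cd68 itself was lower in EVT0185 livers by the -0.50 given above, which raises every ratio to it there, so the ratios to Csf1r are given as well. Csf1r stood 0.36 higher against Cd68 in EVT0185 than in vehicle livers on the log2 scale, with SDs of 0.18 and 0.16 in vehicle and EVT0185 animals. EVT0185 animals ran from 0.10 to 0.64 and vehicle animals from -0.24 to 0.28, and 6 of the 8 EVT0185 animals lay above every vehicle animal. The difference ranged from 0.32 to 0.40 when any 1 animal was left out. By itself Csf1r differed by -0.14, near the -0.10 of the median tested gene. A gene at the panel median would thus stand about as high against Cd68, and the mean rise is not particular to Csf1r.

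Against Cd68 the resident markers stood higher in most EVT0185 livers. Marco differed by 1.01, with a median of 1.39 and values from -1.51 to 1.83 in EVT0185 animals, against -1.24 to 1.60 in vehicle animals. Cd163 differed by 0.79, from -1.12 to 1.75 against -1.32 to 1.17. The difference of Marco ranged from 0.83 to 1.37 and that of Cd163 from 0.60 to 1.07 over single omissions, both highest without EVT0185 5. Ccr2 differed by -0.33, and by -0.55 without vehicle 3 and -0.16 without vehicle 1. Relative to Csf1r the differences were smaller for the resident markers, 0.65 for Marco and 0.43 for Cd163, and -0.69 for Ccr2. For Marco 2 EVT0185 animals lay above every vehicle animal in the ratio to Cd68 and 0 in the ratio to Csf1r, with 1 below every vehicle animal in each. For Cd163 4 lay above every vehicle animal in each ratio, with 0 below in the ratio to Cd68 and 1 in the ratio to Csf1r. These ratios combine markers chosen with results known and were not tested.

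**Figure D4:**
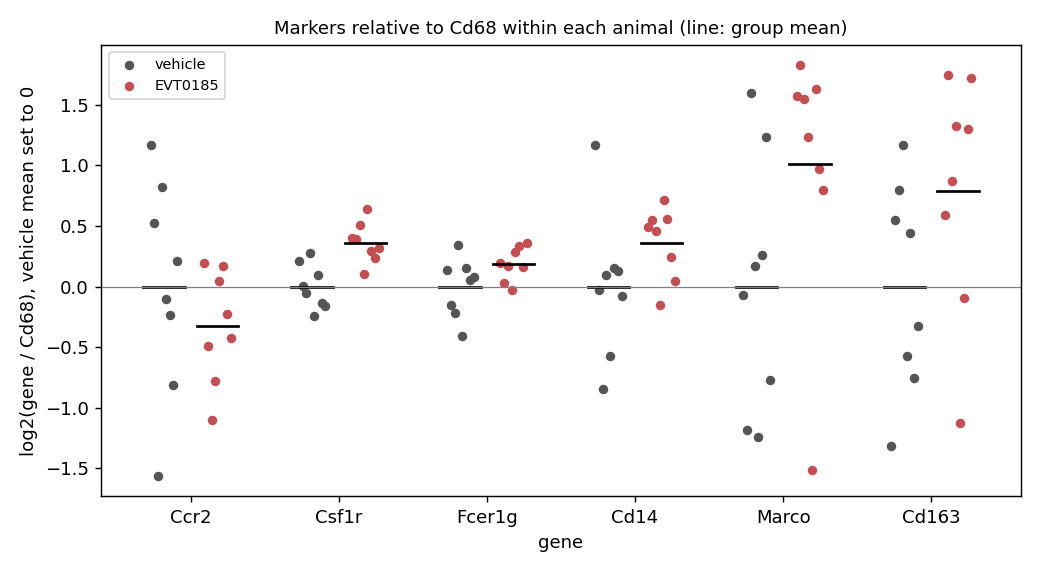
Log2 ratio of each marker to Cd68 within each animal (vertical axis, vehicle mean set to 0) in 8 vehicle (grey) and 8 EVT0185 (red) livers, with the group mean as a line. For Csf1r 6 of 8 EVT0185 points lie above every vehicle point, while for Marco and Cd163 the EVT0185 means are higher by 1.01 and 0.79 with 1 and 2 animals below 0.

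Counts in the following lists of genes are read against the panel, in which 32.7% of the tested genes were called and 21.6% were lower. Among factors that grow or specify macrophages, 3 of 12 listed genes were measured and 2 of these 3 fell: Irf8, a transcription factor of the monocyte lineage (log2 -0.44, SE 0.13, limma adjusted p = 0.0155), and Csf3r, the receptor of the neutrophil growth factor G-CSF (log2 -0.54, SE 0.19, limma adjusted p = 0.0371). Nr1h3, the oxysterol receptor LXR-alpha, differed by -0.036 (SE 0.076). The call of Irf8 ended after quantile normalization (-0.25, limma adjusted p = 0.102), and that of Csf3r under each of the 3 other scalings (limma adjusted p from 0.0558 to 0.165). In the exact permutation test 2 of the 3 measured genes passed, and 1 in the exact rank-sum test.

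Of 6 measured genes of monocyte recruitment, 4 were tested and 0 passed in limma and in both exact tests, with 2 at an unadjusted p under 0.05, the closest being the integrin chain Itga4 (log2 -0.40, SE 0.16, limma adjusted p = 0.0629). Ccl2, the ligand of the receptor CCR2, differed by -0.059 (SE 0.23), beside the fall of Ccr2 itself.

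Fc receptor signalling, to which Fcer1g belongs, had 6 tested genes, of which the kinase Lyn fell (log2 -0.29, SE 0.095, limma adjusted p = 0.0246) and Syk, the kinase that docks on the gamma chain, differed by -0.35 (SE 0.16). The call of Lyn ended after median centring (-0.20, limma adjusted p = 0.108) and after quantile normalization (-0.18, limma adjusted p = 0.0893). The LPS receptor group, to which Cd14 belongs, had 4 tested genes, of which the adaptor Myd88 rose (log2 0.24, SE 0.082, limma adjusted p = 0.0317). Tlr4, the signalling receptor beside CD14, differed by -0.40 (SE 0.15). The medians were -0.32 over the Fc receptor group and -0.094 over the LPS group, against -0.10 over all tested genes.

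Of scavenger and phagocytic receptors 3 of 16 listed genes were measured: Cd36, a fatty acid transporter that hepatocytes and macrophages share, rose 2.54-fold, Axl, a receptor for apoptotic cells, fell (log2 -0.43, SE 0.13, limma adjusted p = 0.0192), and Hmox1 differed by -0.24 (SE 0.21). Of 7 tested products of activated macrophages 3 fell and 0 rose in limma, against 21.6% lower over the panel, and 1 of the 7 passed in each exact test. They were the macrophage elastase Mmp12 (log2 -1.35, SE 0.27, limma adjusted p = 0.001), osteopontin (Spp1, log2 -0.94, SE 0.34, limma adjusted p = 0.0427) and interleukin 6 (Il6, log2 -0.51, SE 0.19, limma adjusted p = 0.0427), while Il1b differed by -0.095 (SE 0.16) and Arg1 by -0.032 (SE 0.14). The median of the 7 was -0.41. Mmp12 was called under all scalings, while Spp1 and Il6 passed under none of the 3 others (limma adjusted p from 0.0581 to 0.189).

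Genes listed as markers of other cells moved as well. Ptprc, the 1 measured pan-leukocyte gene of 5 listed, fell (log2 -0.42, SE 0.14, limma adjusted p = 0.0281), from 94.3 to 188 in vehicle and 70.9 to 126 in EVT0185 livers. Both measured genes of the 8 on the neutrophil list fell in limma, Csf3r (counted above among the growth factors too) and the oxidase subunit Ncf4 (log2 -0.52, SE 0.18, limma adjusted p = 0.0318), with a summed level of 60.0 to 106 in vehicle and 40.8 to 83.0 in EVT0185 livers. Of these 2 genes, 1 passed in the exact permutation test and 0 in the exact rank-sum test. Whether these transcripts came from neutrophils or from monocytes and macrophages cannot be told apart in whole liver. Ncf4 passed under none of the 3 other scalings, and Ptprc neither after median centring (-0.33, limma adjusted p = 0.0611) nor after quantile normalization (-0.28, limma adjusted p = 0.0825). The 6 measured T cell genes of 12 listed all lay under the floor and summed to 67.5 to 94.9 and 60.7 to 91.8. The summed level of 7 natural killer cell genes was 87.6 to 144 and 86.7 to 131 and that of 5 mast cell genes 46.2 to 75.3 and 52.7 to 75.4. Ccr7, the 1 measured dendritic cell gene of 8 listed, lay under the floor at 7.73 to 27.7 and 15.3 to 24.5. Of the tested genes of the natural killer and mast cell lists, Nkg7 (log2 -0.052) and Ms4a2 (-0.093) had the smallest p; 0 genes of these lists passed in limma or in either exact test, and 0 had an unadjusted p under 0.05. No listed marker averaged 1 count or less.

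Among the lists for tissue cells, 5 of 10 genes listed for stellate cells and myofibroblasts fell in limma, beside 21.6% of all tested genes. In each exact test 4 of the 10 passed. The sum of the 10 ran from 1997 to 3770 in vehicle and 1404 to 2448 in EVT0185 livers. Col1a2 (log2 -0.85), S100a4 (-0.77), Col3a1 (-0.72) and Col1a1 (-0.95) had the smallest p. Which cells these transcripts came from, that of S100a4 included, cannot be read from whole liver. Of 11 hepatocyte genes 7 fell, beside the same 21.6%, led by Apoa1 (-1.04), Apoc3 (-0.64, or -0.23 and not called after quantile normalization), Pck1 (-1.90) and Fbp1 (-0.85), with a sum of 477870 to 634664 and 411405 to 468584. Of 6 endothelial genes 0 passed in limma or in either exact test, and 0 had an unadjusted p under 0.05, the closest being Cd34 (log2 -0.42, SE 0.21, limma adjusted p = 0.132), with a sum of 762 to 1216 and 848 to 1136. The part of these other cells in the falls of Ccr2 and Cd68 was not tested.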

How the data were processed

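Per the labels' protocols, total liver RNA was hybridized to probe pairs of the nCounter Fibrosis Panel. The authors used global geometric mean normalization in nSolver 4.0, as the design text of the series records. The deposited values are log2, 1 column per animal, and 2 to their power was a whole multiple of 1 step per animal for 100% of values within 0.1 of a count, so counts could be recovered. Background treatment is not stated in the labels.

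The 612 genes with a mean normalized count of at least 20 were tested on the deposited log2 values of all 16 animals with limma 3.58.1 in R 4.3.3 (lmFit, eBayes with a variance trend, no covariate, two-sided), with Benjamini-Hochberg adjustment over all of them. The test was checked on simulated data. SE and 95% intervals are limma's moderated ones. Exact permutation and exact rank-sum tests over all 12870 assignments were alternatives, with total count scaling and voom weights among the scalings. Correlations used 100000 permutations within groups. The 2 genes most like each marker and up to 4 genes per list (smallest p past the threshold, otherwise the 1 with the smallest p) were named by rule, and further genes after their values were seen: Nr1h3, Ccl2, Syk, Tlr4, Hmox1, Il1b and Arg1. Some genes given by the rule are not reported here. The 7 markers and the 17 lists were chosen with earlier results of these data known.

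Among 56 pairs of animals of 1 group, chi-square per degree of freedom of the counts was at least 10.8, which leaves no duplicated sample. The number of animals limits precision. Promoters are from RefSeq, GRCm38.p6: 5 of the 7 markers were looked up and 4 printed.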

Additional observations from a re-analysis of the deposited data

Results flagged for a closer look

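EVT0185 animal 5 had a Marco normalized count of 31.1, far below the other 7 animals of its group: its gap to the next lowest animal was 0.684 of the range of the group on the log2 scale, above Dixon's 95% critical value for 8 animals. All 7 markers were examined in both groups, 14 sets of values, and chance gives such a gap in about 5% of them. The Cd163 value of the same animal, 20.7, was also the lowest of its group.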

How the results depend on the processing

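The number of markers past the threshold was 2 as deposited and with total count scaling, a pseudocount of 20, no floor, sample weights, the exact permutation test and the replicate block, and 1 after median centring, after quantile normalization, in the exact rank-sum test and with a floor of 100, which left out Ccr2, Cd14 and Cd163. It ranged from 1 to 3 when 1 animal was left out. Cd68 lost its call after median centring (-0.41), after quantile normalization (-0.40) and in the rank-sum test (-0.50 with adjusted p = 0.0967), and in 5 of 16 single omissions, over which it ranged from -0.59 to -0.37. Fcer1g gained a call in 1 single omission, within a range of -0.42 to -0.21. Cd14 turned sign after quantile normalization (0.059) and with sample weights (0.0012). Csf1r, Marco and Cd163 passed under none of the alternatives run, and Ccr2 under all in which it was tested. Over the panel, 170 to 251 genes passed under the alternatives and 170 to 236 in single omissions, against 200. Animals of the same replicate number in both groups deviated together with a correlation over 0.1 for 5 of 8 numbers (-0.14 to 0.46), and 2 vehicle and 1 EVT0185 animals correlated best with their own number, so the numbers were not taken as pairs; with the replicate block 190 genes passed and the calls of the 7 markers stayed as they were. Spread between animals, not counting, limits Marco and Cd163, while counting made up 21.5% of the variance of Cd14.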

Other observations

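Vehicle animal 1 combined the highest Ccr2 (107) and the highest Cd14 (125) of its group with the lowest Cd163 (19.5), the reverse of vehicle 3 for Ccr2 and Cd163. Among EVT0185 animals, number 6 had the highest Ccr2 (58.8), Cd14 (90.7), Fcer1g (161) and Marco (327) of its group, while its Cd163 (50.2) was the second lowest.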
